A study of Mus musculus with 18 samples.

Results

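B2 elements were examined locus by locus in RNA of wild-type (WT) and Atrx knockout mouse mesenchymal progenitor cells. Members were all rows of the rRNA-depleted RNA-seq count table whose name gave B2 as the repeat family, which came to 372923 loci of the 3725827 transposable element (TE) loci in the table. By subfamily they were 148427 B3, 92925 B3A, 90007 B2_Mm2, 23218 B2_Mm1t and 18346 B2_Mm1a loci. The cells were C3H/10T1/2, an established line of mouse mesenchymal progenitor cells (MPCs). The 9 libraries came from WT cells, which received a Cas9 vector without a guide, and from the Atrx knockout clones sg5 and sg6, each made with its own guide RNA, with 3 libraries per group. Each knockout was a single clone and all libraries of a group came from the same line, so the n of 3 and every p-value describe the spread between libraries of a line. Effects of the knockout and clonal variation cannot be told apart, nor in bulk RNA can fewer transcribing cells and less RNA per cell. Both clones were compared with the same WT libraries.

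B2 elements are short interspersed elements (SINEs) of rodent genomes that descend from a tRNA gene. They carry an internal promoter for RNA polymerase III, encode no protein and are copied with the machinery of L1 elements. B2_Mm1a and B2_Mm1t are the younger subfamilies, whose copies are close to identical to each other, and B3 and B3A are older and more diverged. B2 RNA accumulates during heat shock and can bind RNA polymerase II, many B2 copies hold a CTCF binding motif, and the chromatin complex of ADNP, CHD4 and HP1 proteins binds B2 copies. ATRX is a chromatin remodeller known for its role at heterochromatic repeats marked by H3K9me3. Many B2 copies lie in introns and untranslated regions of genes, so a read in a B2 locus can come from a host transcript as well as from the element's own promoter. These sources were not separated by the counts.

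The libraries held between 20135336 and 33187136 counts, of which TE loci took 10.4 to 15.5%. WT replicate 3 stood apart with the largest total and with 15.5% of its counts in TE loci, against 10.4 to 12.3% in the other 8 libraries. Atrx was at 213, 185 and 222 CPM (counts scaled to library size with TMM factors) in WT, at 107, 58.4 and 70.99 CPM in sg5 and at 96.6, 72.7 and 80.3 CPM in sg6. All knockout libraries were below the WT libraries. The log2 fold change of Atrx was -1.39 ± 0.21 (SE, adjusted p = 0.00138) in sg5 and -1.31 ± 0.20 (adjusted p = 0.00227) in sg6. Adjusted p-values of single genes and loci come from edgeR's quasi-likelihood test with Benjamini-Hochberg adjustment over all 56086 genes and loci tested, unless another fit is named. Alternative fits and fits without 1 library were adjusted over their own features. Sums over TE families and subfamilies were adjusted over the genes and sums fitted with them, and subfamily shares over their permutation tests. None of the 8 mesenchymal progenitor markers was at 0 in all libraries, and their summed level ran from 3843 to 4922 CPM in WT, while sg5 had 6008 to 8210 CPM and sg6 had 6554 to 8244 CPM. Vim, the intermediate filament gene vimentin, made up most of that sum, at 2494 ± 534 CPM (SD, n = 3) in WT, 4341 ± 899 CPM in sg5 (adjusted p = 0.0588) and 4252 ± 1223 CPM in sg6 (adjusted p = 0.0873). Pdgfra had lower means than in WT, by -0.16 (log2) in sg5 and -0.64 in sg6 (adjusted p = 0.701 and 0.0580). Thy1 was low in WT and sg5, at 0.298 ± 0.115 and 0.0960 ± 0.102 CPM (SD, n = 3). Its sg5 value of -1.82 (log2, adjusted p = 0.107) thus rests on few reads. In sg6 Thy1 was far higher, at 27.0 ± 5.04 CPM (log2 fold change 6.43, adjusted p = 4.42e-07). Eng, which encodes the surface protein endoglin, rose in both clones from 4.05 ± 0.547 CPM (SD, n = 3) to 17.0 ± 10.2 CPM in sg5 (adjusted p = 0.00228) and 10.1 ± 0.0462 CPM in sg6 (adjusted p = 0.0450). Summed blood, endothelial and adipocyte markers stayed at or under 1.37 CPM in every library, and epithelial markers were at 1.56 to 3.05 CPM in WT and at 0.557 CPM or less in the clones. Cdh1, the epithelial cadherin, fell from 2.18 ± 0.717 CPM to 0.147 ± 0.171 CPM in sg5 (adjusted p = 0.00275) and 0.235 ± 0.0449 CPM in sg6 (adjusted p = 0.00693). The part of these marker differences in the B2 results was not tested.

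Most B2 loci had no count in any library. A total of 135359 loci (36.3%) had at least 1 count in any library, and 5898 (1.58%) had enough counts to be tested. The share with a count was higher in the younger subfamilies, at 54.1% of B2_Mm1a loci and 47.4% of B2_Mm1t loci, followed by 39.2% of B2_Mm2, 34.6% of B3 and 29.8% of B3A loci. Summed over a subfamily, a B2_Mm1a locus held a mean of 0.969 counts per library and a B3A locus 0.577, not corrected for locus length, which the table does not hold. Reads from near-identical copies were shared out among them by the counting software, so the values of single loci in the young subfamilies are the most uncertain. The tested loci were 386 B2_Mm1a, 412 B2_Mm1t, 1323 B2_Mm2, 2563 B3 and 1214 B3A, and they held 37.8% of all B2 counts, with a median of 11.3 counts per library and locus. A locus could reach this filter through the group in which it was high, so the tested loci are not a sample of all members.

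Summed over all its loci, the B2 family had a lower mean in both clones than in WT, and the difference did not pass the test. WT libraries held 9042, 10569 and 12398 CPM of B2 counts, sg5 libraries 9019, 8358 and 9718 CPM, and sg6 libraries 8736, 10063 and 9486 CPM. The groups overlapped, and the highest value was that of WT replicate 3. The log2 fold change was -0.24 ± 0.14 (SE, 95% confidence interval (CI) -0.55 to 0.07, adjusted p = 0.256) in sg5 and -0.18 ± 0.14 (CI -0.49 to 0.13, adjusted p = 0.461) in sg6. These intervals cover sums of 0.682 to 1.05 times the WT level in sg5 and of 0.712 to 1.097 times in sg6. Without WT replicate 3 the log2 fold changes were -0.12 and -0.06. Between the clones it was -0.06 ± 0.14 (CI -0.37 to 0.25, adjusted p = 0.872). The family sums of the other SINEs lay close to these, with log2 fold changes in sg5 of -0.22 for Alu (the mouse B1 elements) and -0.20 for B4, and of the 61 TE families tested, 48 in sg5 and 54 in sg6 were below 0.

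Each of the 5 subfamilies had a mean below WT in both clones, and none passed the test. B2_Mm1a held 719, 801 and 720 CPM in WT, 528, 611 and 673 CPM in sg5, and 506, 865 and 599.6 CPM in sg6. All sg5 libraries were below all WT libraries, whereas sg6 replicate 2 was above every WT library. The log2 fold changes of B2_Mm1a were -0.31 ± 0.19 (SE, adjusted p = 0.289) in sg5 and -0.19 ± 0.19 (adjusted p = 0.586) in sg6. B2_Mm1t held 666, 753 and 795 CPM in WT, 601, 580 and 656 CPM in sg5 and 566, 781 and 649 CPM in sg6. Its sg5 libraries were again all below WT (log2 fold change -0.27 ± 0.14, adjusted p = 0.206), while sg6 overlapped WT (-0.15 ± 0.14, adjusted p = 0.544). For B2_Mm2, B3 and B3A both clones overlapped WT, with log2 fold changes of -0.21, -0.21 and -0.22 in sg5 and of -0.16, -0.16 and -0.17 in sg6. Without WT replicate 3 these became -0.12, -0.068 and -0.081 in sg5 and -0.070, -0.022 and -0.029 in sg6. B3 held the largest part of B2 counts, at a mean of 4411 ± 758 CPM (SD, n = 3) in WT, 3824 ± 259 in sg5 and 3948 ± 136 in sg6. Over all alternative settings of this fit, the adjusted p of the sums lay between 0.120 and 0.747 in sg5 and between 0.114 and 0.956 in sg6.

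**Figure D1:**
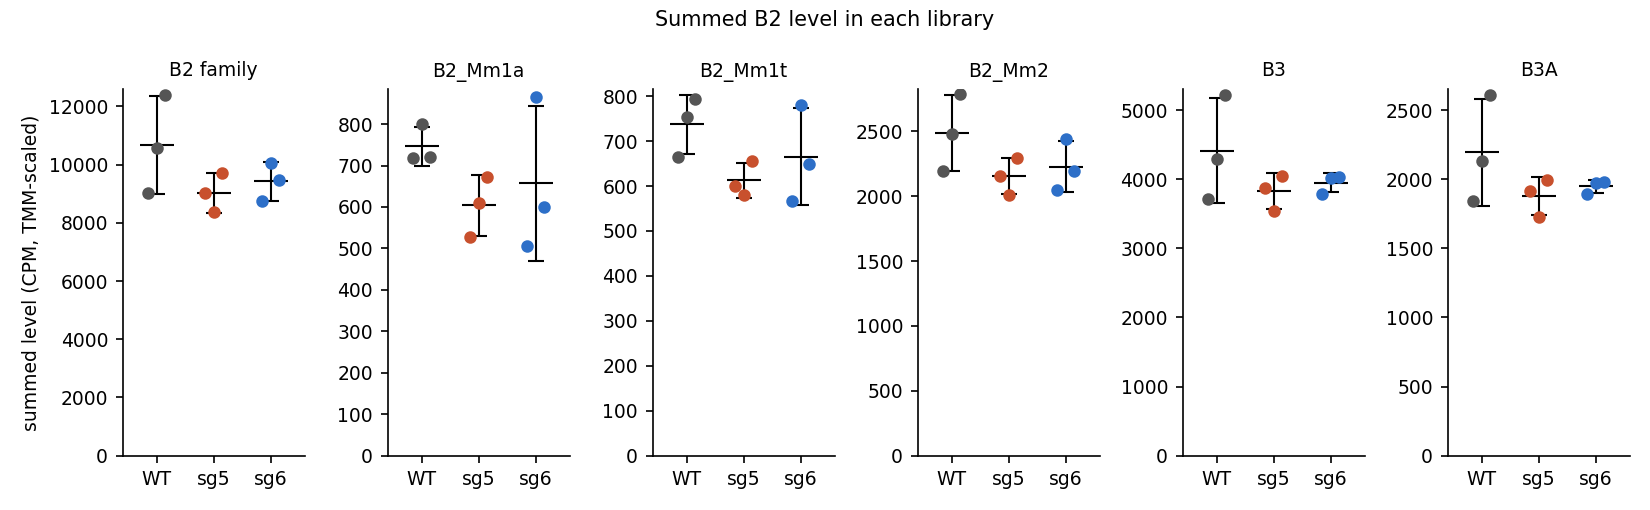
Summed level in CPM (vertical axes from 0, TMM-scaled) of the B2 family and its 5 subfamilies in each of the 9 libraries, with horizontal ticks at the group mean and bars of 1 SD (n = 3). The sg5 libraries lie below all WT libraries for B2_Mm1a and B2_Mm1t, at 528 to 673 CPM against 719 to 801 CPM for B2_Mm1a, and groups overlap in every other panel.

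The B2 share of each library was also compared without any scaling factor. B2 loci took 0.930, 1.09 and 1.27% of all counts in WT, 0.913, 0.832 and 0.941% in sg5, and 0.880, 0.959 and 0.926% in sg6. The mean was 0.204 percentage points lower in sg5 than in WT (exact permutation test, two-sided, p = 0.2) and 0.177 points lower in sg6 (exact permutation p = 0.2), where 3 against 3 libraries cannot give less than 0.1. Without WT replicate 3 these differences were -0.117 and -0.0903 points. Relative to TE counts alone the share differed by less than the spread between libraries, at 8.32 ± 0.495% (SD, n = 3) in WT, 8.11 ± 0.110% in sg5 and 7.88 ± 0.535% in sg6 (exact permutation p = 0.8 and 0.4 against WT). The library with the most TE counts, WT replicate 3, thus had the largest B2 share of all counts and a B2 share of TE counts of 8.20%, inside the range of the other libraries.

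**Figure D2:**
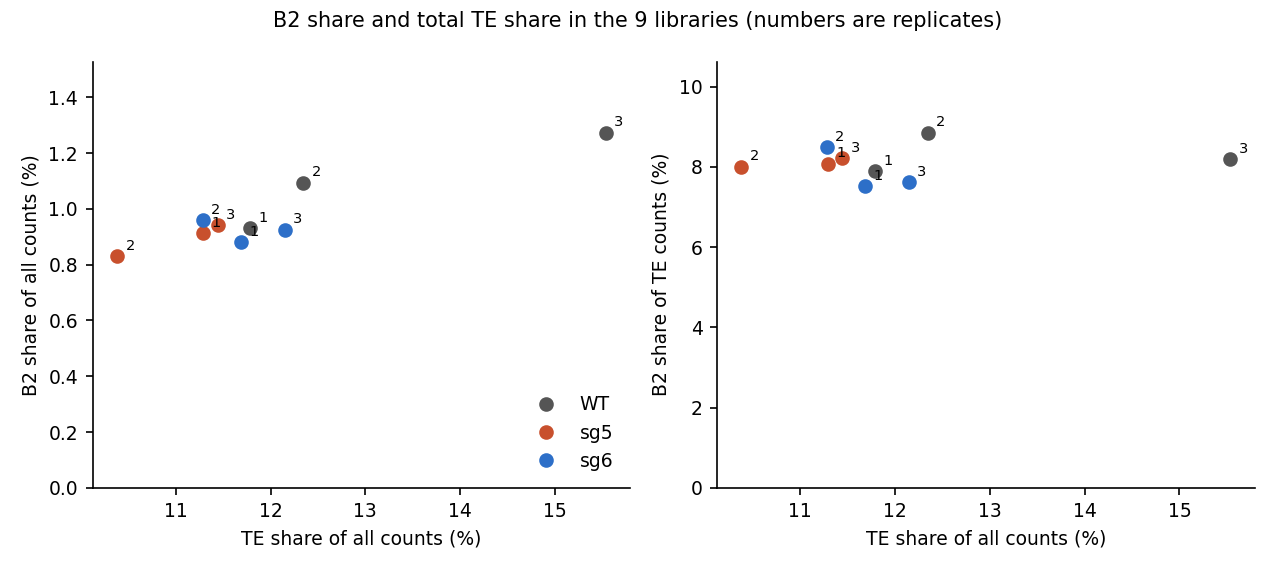
B2 share of all counts (left) and of TE counts (right), in percent, against the TE share of all counts in percent, with a numbered point for each library and vertical axes from 0. WT replicate 3 lies alone at a TE share of 15.5% and a B2 share of 1.27% of all counts, and the B2 share of TE counts is between 7.53 and 8.86% in all 9 libraries.

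The make-up of B2 RNA by subfamily did not differ between groups beyond the libraries. B3 took 41.6 ± 1.27% (SD, n = 3) of B2 counts in WT, 42.1 ± 0.507% in sg5 and 41.9 ± 1.70% in sg6. B2_Mm1a, the subfamily with the largest spread for its size, took 5.94 to 7.86% in WT. Its range was 5.81 to 7.21% for sg5 and 5.74 to 8.58% for sg6. None of the 10 comparisons of a subfamily share with WT differed beyond the libraries (exact permutation p between 0.4 and 1.0, adjusted p = 1.0 in all). With every library thinned to the smallest total, 60023 ± 6224 B2 loci had a count in WT, 51920 ± 2352 in sg5 and 53538 ± 2603 in sg6 (exact permutation p = 0.2 and 0.3 against WT). The difference from WT was -8103 loci in sg5 and -6485 in sg6, or -5315 and -3697 without WT replicate 3. The 10 highest loci of a library together took 1.37 to 2.12% of its B2 counts.

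At single loci few B2 elements passed the test in either direction. In sg5, 28 loci were higher and 37 lower than in WT, or 0.475 and 0.627% of the 5898 tested, where 1.82 and 2.06% of all features and 0.638 and 1.11% of all TE loci were called. In sg6, 16 loci were higher and 13 lower, or 0.271 and 0.220%, against 1.18 and 1.72% of all features and 0.439 and 0.996% of all TE loci. The B2 shares were thus below the shares over all features in both directions. This comparison was not matched for read depth, and the tested B2 loci had a median of 11.3 counts per library. At an unadjusted p under 0.05 the counts were 607 in sg5 and 415 in sg6 of the 5898, where a share of 0.05 is expected with no change at any locus. The matching share over all features was not computed, so these are not counts of changed loci. The median log2 fold change over the tested B2 loci was -0.13 in sg5 and -0.09 in sg6, beside -0.06 and -0.04 over all features. Over all tested TE loci it was -0.12 in sg5 and -0.08 in sg6, so the B2 medians were close to those of TE loci in general. With scaling factors taken from TE loci alone, which moved the median of all features from -0.06 to 0.05 in sg5, the sg5 calls were 43 higher and 31 lower, so the share of higher calls went from 43.1 to 58.1%.

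These counts depended on single libraries. In sg5 the 28 higher loci became 14 without WT replicate 2, 13 without WT replicate 3, 17 without sg5 replicate 2, 17 without sg5 replicate 3 and 45 without sg6 replicate 1. The 37 lower loci in sg5 became 16, 10 and 10 without WT replicates 1, 2 and 3 and 23 without sg5 replicate 2. In sg6 the 16 higher loci became 6, 7 and 6 without WT replicates 1, 2 and 3, and 10 without sg6 replicate 2 or 3. The 13 lower loci in sg6 became 5, 7 and 2 without WT replicates 1, 2 and 3, and 26 without sg5 replicate 1. The 2203 tested loci with a mean under 10 counts had a median SE of 0.68 on the log2 scale in sg5, while the 193 loci at 50 counts or more had a median SE of 0.31. From the bin under 10 counts through 10 to 20 and 20 to 50 to the bin of 50 counts or more, 0.908, 0.714, 2.26 and 3.63% of loci were called in sg5. In sg6 the shares in the same bins were 0.409, 0.451, 0.833 and 0.518%.

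Whether the called loci differed in their spread over the subfamilies was not tested, and of all features 1.82% were called higher and 2.06% lower in sg5. In sg5, B2_Mm1a had 9 lower and 1 higher locus of 386 tested and a median change of -0.28 (log2), and B2_Mm2 had 9 higher and 1 lower locus of 1323 and a median of -0.09. B3 had 10 higher and 15 lower loci, B3A 5 higher and 11 lower, and B2_Mm1t 3 higher and 1 lower. The deepest of the lower B2_Mm1a loci in sg5 was B2_Mm1a_dup12637, with 115, 163 and 108 counts in WT, 26, 32 and 33 in sg5 and 22, 83 and 40 in sg6. It fell in sg5 (log2 fold change -1.80 ± 0.41 SE, adjusted p = 0.0263), while its value in sg6 was -1.26 ± 0.40 (adjusted p = 0.142). The higher B2_Mm1a locus, B2_Mm1a_dup17729, held 57, 53 and 91 counts in WT, 243, 157 and 237 in sg5 and 55, 140 and 106 in sg6, and rose by 1.96 ± 0.29 (log2, SE, adjusted p = 0.00120) in sg5, where its value in sg6 was 0.81 ± 0.28 (adjusted p = 0.206). Both loci were picked after their values were seen. In sg6 the 16 higher loci were 10 B3, 4 B3A and 2 B2_Mm2, and the 13 lower were 6 B3, 3 B2_Mm1a, 3 B2_Mm2 and 1 B3A. Among other SINE families in sg5, Alu had 26 higher and 26 lower loci of 8384 tested and B4 32 higher and 20 lower of 5110. Outside the SINEs, 167 of 7911 tested L1 loci and 94 of 2790 tested ERVK loci were lower in sg5.

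**Figure D3:**
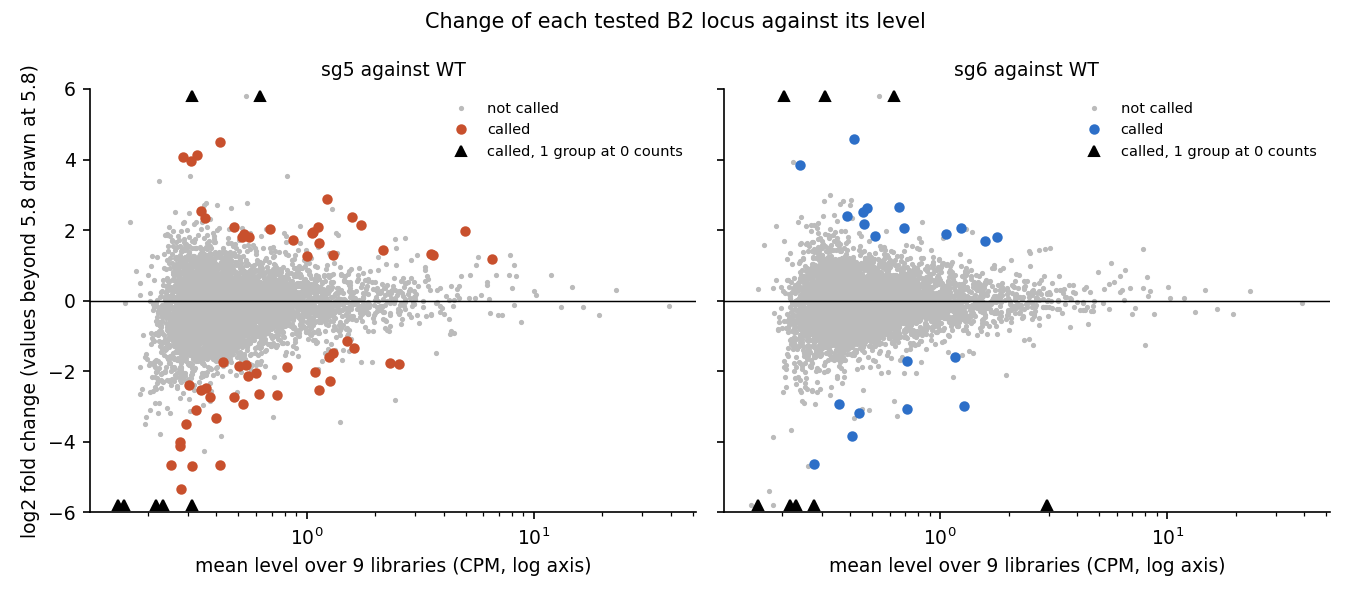
Log2 fold change against WT (vertical axis, values beyond 5.8 in either direction drawn at 5.8) against the mean level over the 9 libraries in CPM (horizontal log axis) for the 5898 tested B2 loci in sg5 (left) and sg6 (right). Coloured points are the loci called at an adjusted p below 0.05, black triangles those called loci with 0 counts in every library of a group, and grey points the rest, which narrow around 0 as the level rises.

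A total of 9 B2 loci were called higher in both clones, or 0.153% of those tested, beside 0.727% of all features and 0.236% of all TE loci. For 7 of them every knockout library was above every WT library, which held for 0.119% of B2 loci, 0.722% of all features and 0.231% of all TE loci. The largest change was at B3A_dup22892, which had 0, 0 and 2 counts in WT, 17, 12 and 14 in sg5 and 19, 10 and 18 in sg6. With 2 counts in WT the level was 26.4 times higher in sg5 (exact 95% counting interval 6.89 to 225) and 27.7 times higher in sg6 (interval 7.25 to 235), with adjusted p = 0.00390 and 0.00375. It was also the single locus of the 9 that stayed called in both clones in all 9 fits that each left out 1 library. B3_dup97752 had 3, 8 and 16 counts in WT, 68, 35 and 59 in sg5 and 44, 27 and 21 in sg6. This B3 locus rose by 2.90 ± 0.43 (log2, SE, adjusted p = 0.00142) in sg5 and by 2.05 ± 0.44 (adjusted p = 0.0200) in sg6, the latter not called without WT replicate 1 or 2 or sg6 replicate 1 (adjusted p = 0.0752, 0.0682 and 0.0769).

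Of the other higher loci, B3_dup142678 had 13, 16 and 15 counts in WT, 45, 58 and 83 in sg5 and 25, 64 and 36 in sg6. It rose by 2.37 ± 0.39 (log2, SE, adjusted p = 0.00286) in sg5, a call that held in every fit without 1 library. In sg6 it rose by 1.69 ± 0.39 (adjusted p = 0.0316), where the call was lost without any single WT library and without sg6 replicate 2 or 3. B3A_dup91095 had 3, 2 and 6 counts in WT, 14, 10 and 15 in sg5 and 24, 21 and 14 in sg6, and rose by 2.10 ± 0.48 (adjusted p = 0.0259) and 2.63 ± 0.47 (adjusted p = 0.00586). Here it was the sg6 call that held in all 9 fits without 1 library, whereas the sg5 call held in 4. B2_Mm2_dup85073, the one B2_Mm2 member of the group, had 3, 10 and 7 counts in WT, 27, 14 and 27 in sg5 and 18, 33 and 21 in sg6, and rose by 2.02 ± 0.43 (log2, SE, adjusted p = 0.0175) in sg5 and by 2.05 ± 0.43 (adjusted p = 0.0182) in sg6. B3_dup8882 had 11, 8 and 14 counts in WT, 53, 18 and 34 in sg5 and 56, 26 and 23 in sg6, and B3A_dup88859 had 5, 4 and 8, then 13, 10 and 27, then 18, 16 and 18. Their log2 fold changes lay between 1.82 and 1.91, and B3A_dup88859 was near the threshold in both clones (adjusted p = 0.0430 and 0.0476). These calls also depended on single libraries. In the 9 fits without 1 library, B2_Mm2_dup85073 was called in 6 in each clone (adjusted p up to 0.102 in sg5 and 0.120 in sg6), B3_dup8882 in 4 in sg5 and 5 in sg6 (up to 0.130 and 0.195) and B3A_dup88859 in 3 in sg5 and 2 in sg6 (up to 0.188 and 0.183). Leaving out WT replicate 1 or 3 ended the calls of all 3 in both clones.

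In the remaining 2 loci called higher in both clones the groups overlapped, because 1 sg5 library was at 0. B3_dup75615 had no count in WT, 33, 17 and 0 counts in sg5 and 39, 25 and 23 in sg6. B3_dup15088 had none in WT, 15, 0 and 17 in sg5 and 11, 22 and 9 in sg6. The zero belonged to sg5 replicate 3 in the first locus and to sg5 replicate 2 in the second. With a floor of 3 counts for each WT library, B3_dup75615 was higher by at least 6.81-fold (sg5, adjusted p = 0.0342) and 11.1-fold (sg6, adjusted p = 0.0179). B3_dup15088 was higher by at least 3.79-fold (adjusted p = 0.0405) and 5.19-fold (adjusted p = 0.0313).

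The 7 loci called lower in both clones were 0.119% of those tested, beside 1.16% of all features and 0.615% of all TE loci, and in all 7 every knockout library was below every WT library, which was so for 1.15% of all features. In 3 of them no read was left in either clone. B2_Mm1a_dup2402 had 19, 22 and 19 counts in WT and 0 in all 6 knockout libraries. B3_dup3559 had 19, 13 and 26 counts in WT and B3A_dup2416 had 14, 12 and 15, both with 0 in all 6 knockout libraries. With the same floor for each knockout library, the levels were at least 5.45-fold lower in sg5 and 5.83-fold lower in sg6 for B2_Mm1a_dup2402, at least 5.11-fold and 5.46-fold lower for B3_dup3559, and at least 3.70-fold and 3.96-fold lower for B3A_dup2416. The adjusted p in the order sg5 and sg6 was 0.0134 and 0.0145, then 0.0162 and 0.0175, then 0.0382 and 0.0433. With WT at 12 to 26 counts per library, each call was lost when any single WT library was left out (adjusted p up to 0.121, 0.171 and 0.250), and B3A_dup2416 stayed called in 1 of the 9 fits without 1 library in each clone.

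The other 4 loci kept some reads in at least 1 clone. B3_dup3572 had 11, 16 and 50 counts in WT, 1 in each sg5 library and 0 in each sg6 library. It was 20.9 times lower in sg5 (exact 95% counting interval 6.88 to 103) and at least 6.62-fold lower in sg6, with adjusted p = 0.0137 and 0.00340, or 0.271 and 0.120 without WT replicate 3. B2_Mm1a_dup16390 had 13, 33 and 21 counts in WT, 0, 2 and 1 in sg5 and 0, 2 and 0 in sg6, which made it 18.2 times lower (interval 5.95 to 90.3, adjusted p = 0.0293) and 28.4 times lower (interval 7.57 to 240, adjusted p = 0.0202). Its calls were lost without any single WT library, with adjusted p up to 0.304. B3_dup27448 had 19, 16 and 42 counts in WT, 6, 1 and 4 in sg5 and 4, 2 and 2 in sg6, with log2 values of -2.46 ± 0.56 (SE) in sg5 and -2.92 ± 0.58 in sg6 (adjusted p = 0.0247 and 0.0135, or 0.232 and 0.199 without WT replicate 3). B3_dup47737, the most abundant of the 7, had 58, 54 and 159 counts in WT, 36, 4 and 5 in sg5 and 9, 8 and 10 in sg6, with log2 values of -2.27 ± 0.58 in sg5 and -2.99 ± 0.61 in sg6 (adjusted p = 0.0438 and 0.0153). WT replicate 3 was the highest library at both loci, and without it B3_dup47737 was at adjusted p = 0.198 and 0.0970. Other libraries ended calls as well, since in the 9 fits without 1 library B3_dup47737 was called in 3 in sg5 and 6 in sg6, and B3_dup27448 in 5 in each clone.

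**Figure D4:**
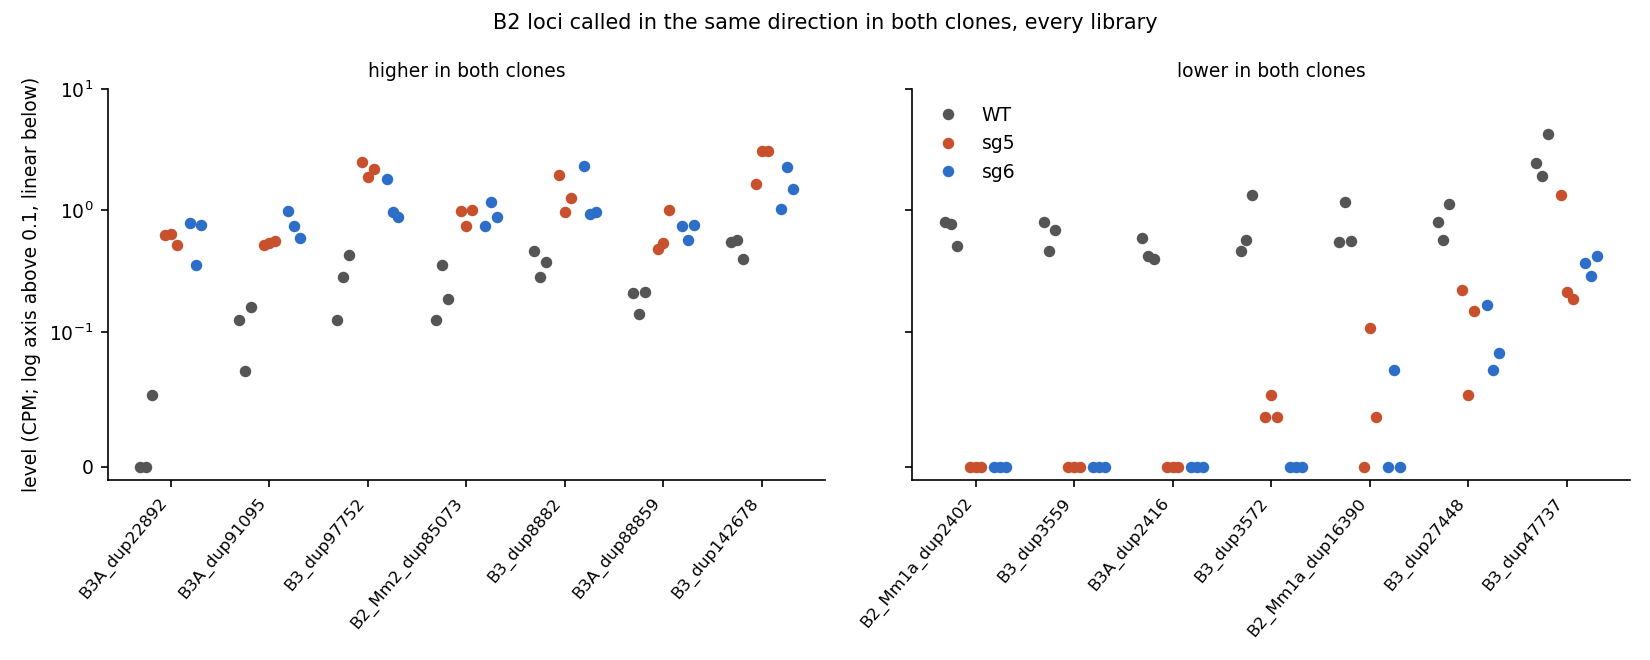
Level in CPM (vertical axis, logarithmic above 0.1 and linear below) in each of the 9 libraries at the 7 B2 loci that were higher in both clones without overlap (left) and the 7 that were lower (right), with 3 points per group. The knockout points lie at 0 in all 6 libraries of B2_Mm1a_dup2402, B3_dup3559 and B3A_dup2416, and WT lies at 0 in 2 of 3 libraries of B3A_dup22892.

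Loss of all reads was rare among B2 loci as a whole. Of the 2477 B2 loci with at least 10 counts in each WT library, 6 (0.242%) were at 0 in all sg5 libraries and 6 (0.242%) in all sg6 libraries, beside 0.494 and 0.563% of all such TE loci. This measure was chosen after the values were seen. The set shared by both clones was the 3 loci above and B3_dup66190, which had 14, 11 and 13 counts in WT and 0 in all 6 knockout libraries (adjusted p = 0.0464 in sg5 and 0.0533 in sg6). The locus with the following number in the same subfamily, B3_dup66191, had 11, 37 and 16 counts in WT, 0, 0 and 1 in sg5 and 4, 2 and 1 in sg6 (adjusted p = 0.00886 and 0.0695). In the other direction, no locus of the 1540 with at least 10 counts in each sg5 library was at 0 in WT (0.00827% of such TE loci), and 2 loci (0.107% of 1873, beside 0.102% of such TE loci) with 10 or more in each sg6 library were, namely B3_dup75615 and B3A_dup47083. B3A_dup47083 had 0 counts in all WT and sg5 libraries and 14, 13 and 19 counts in sg6, which was at least 5.90-fold above WT (adjusted p = 0.0205).

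The clones differed from each other at 2 B2 loci, both higher in sg5 than in sg6 (0.0339% of those tested, beside 0.216% of all features and 0.103% of all TE loci), and 0 were higher in sg6 by edgeR (beside 0.275% of all features and 0.0514% of all TE loci). At an unadjusted p under 0.05 the count between the clones was 355 of 5898, where a share of 0.05 is expected with no change at any locus. DESeq2 called 6 loci higher and 5 lower. B2_Mm1a_dup9906 had 138, 113 and 110 counts in WT, 65, 108 and 152 in sg5 and 0 in all 3 sg6 libraries. The difference between sg5 and WT was 0.12 ± 0.37 (log2, SE, adjusted p = 0.919), and in sg6 the level was at least 35.6-fold lower than in WT (adjusted p = 6.41e-05) and at least 38.6-fold lower than in sg5 (adjusted p = 0.000177). These calls held in every fit that left out 1 library. B2_Mm2_dup14386 had 11, 11 and 13 counts in WT, 44, 19 and 15 in sg5 and 6, 4 and 3 in sg6. Neither clone differed from WT by the test (adjusted p = 0.110 and 0.384), and the difference between them was 2.604 ± 0.51 (log2, SE, adjusted p = 0.0379), lost without any single WT library, without sg5 replicate 1 or 2 and without sg6 replicate 2 or 3 (adjusted p of these fits from 0.0602 to 0.225).

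The 5 B2 loci with the highest mean CPM, a ranking not corrected for locus length, did not pass the test in either clone. B3_dup50444 led with 41.2 ± 6.39 CPM (SD, n = 3) in WT, 37.1 ± 5.74 in sg5 and 39.5 ± 4.99 in sg6, or 806 to 1322 counts per library. B3A_dup7298 followed at 20.02 ± 2.59, 24.8 ± 2.51 and 24.4 ± 2.63 CPM, B2_Mm2_dup85190 at 23.2 ± 2.21, 17.4 ± 0.629 and 17.8 ± 1.23 CPM, B3_dup129966 at 18.1 ± 6.15, 16.05 ± 3.23 and 15.3 ± 3.46 CPM, and B3_dup9608 at 12.5 ± 1.29, 16.3 ± 1.81 and 15.2 ± 3.46 CPM. Every knockout library of B2_Mm2_dup85190 was below every WT library, and the difference was -0.41 ± 0.15 (log2, SE, CI -0.74 to -0.087, adjusted p = 0.172) in sg5 and -0.38 ± 0.15 (CI -0.71 to -0.059, adjusted p = 0.282) in sg6. Among loci with at least 10 counts in every library, where fewer features were tested, its sg5 difference of -0.46 passed the threshold.

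The name of each locus ends in a serial number within its subfamily, and expressed loci were not spread evenly over these numbers. Of the 5898 tested loci, 1307 (22.2%) had the next number of the same subfamily among the tested loci as well, whereas 1.58% of all B2 loci were tested. The share was 28.1% for B3, 21.3% for B3A, 19.4% for B2_Mm2, 9.07% for B2_Mm1a and 8.74% for B2_Mm1t. Over the 1307 pairs with consecutive numbers the log2 fold changes had a Pearson r of 0.40 (Spearman rho 0.43) in sg5 and of 0.25 (rho 0.29) in sg6, and over the 94 pairs whose numbers differed by 1000, r was 0.18 (rho 0.14) and -0.07 (rho -0.03). These are descriptions across loci measured in the same libraries, and loci are not independent replicates. The table gives no coordinates for the loci, and how the numbers were assigned is not given in the sources used here.

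The serial numbers of each subfamily were then divided into 100 windows of equal width, pooled over the subfamilies, after the pattern had been seen. A window held 17 to 124 tested loci, with 2 windows under 20. In sg5 each window from 62 to 72 had a median of -0.32 or lower (log2), and their loci together had a median of -0.44 over 1012 loci, against -0.07 over the other tested loci, and with 77.0% of them below 0, against 54.8%. Their median in sg6 was -0.23, against -0.06 elsewhere. The lowest single window was 71, with a median of -0.73 in sg5 over 123 loci and 5 loci called lower. Other windows were low too. Each window from 26 to 34 was below 0 in both clones, with medians of -0.45 to -0.11 in sg5 and of -0.44 to -0.15 in sg6. Windows 20 and 21 were at -0.43 and -0.25 in sg5 and at -0.45 and -0.34 in sg6, and window 86 was at -0.51 in sg5. The lowest sg6 median of all windows was that of window 20. Of the 37 loci lower in sg5, 14 lay in windows 62 to 72, which held 17.2% of the tested loci, and 9 in windows 70 and 71, which held 4.05%. Both sets of windows were singled out by their low sg5 medians in these same libraries. An excess of lower sg5 calls there was therefore set by that choice and adds no separate support.

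All 5 subfamilies had such values in windows 62 to 72, with sg5 medians of -0.45 for B2_Mm1a, -0.52 for B2_Mm1t, -0.46 for B2_Mm2, -0.43 for B3 and -0.49 for B3A. Loci of the other SINE families, numbered within their own subfamilies and scaled to the highest number that had a count, were alike there, with sg5 medians of -0.42 against -0.03 elsewhere for Alu and -0.42 against -0.06 for B4. The loci of these windows took 17.6, 17.9 and 16.8% of the CPM of tested B2 loci in WT, 13.3, 13.8 and 13.6% in sg5 and 14.96, 16.2 and 15.4% in sg6. The 3 groups did not overlap, but the windows were singled out by their sg5 medians in these same libraries. A lower sg5 share was therefore set by that choice and adds no separate support. The sg5 median kept its sign in all alternative fits, from -0.52 with scaling by genes alone to -0.30 where each locus had at least 10 counts in every library. These fits drew on the libraries by which the windows were chosen, so the kept sign adds no separate support either. Among the 9 loci called lower in windows 70 and 71 were B3_dup103591 and B3_dup103592, which have consecutive numbers and were picked after their values were seen. B3_dup103591 had 54, 84 and 87 counts in WT, 22, 20 and 30 in sg5 and 27, 52 and 22 in sg6 (adjusted p = 0.0357 in sg5). B3_dup103592 had 11, 22 and 42 counts in WT, 8, 3 and 5 in sg5 and 10, 17 and 12 in sg6 (adjusted p = 0.0441 in sg5).

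**Figure D5:**
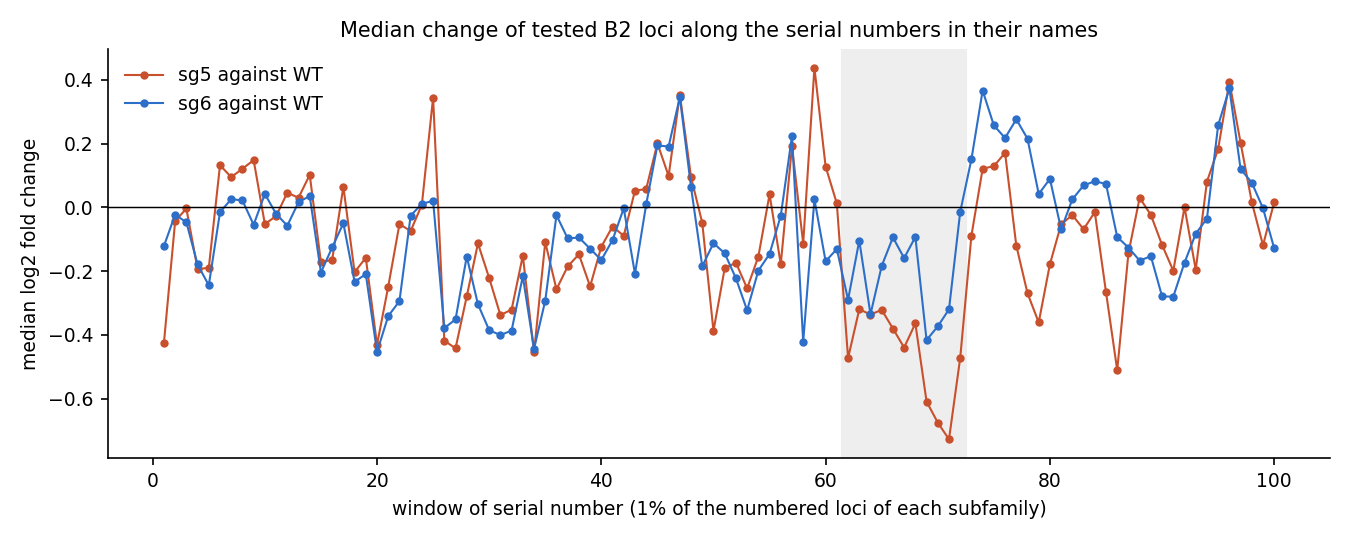
Median log2 fold change against WT (vertical axis) of the tested B2 loci in each of 100 windows of serial number (horizontal axis, 1% of the numbered loci of each subfamily), in sg5 and sg6, with windows 62 to 72 shaded. The sg5 medians lie between -0.32 and -0.73 in the shaded windows, with the lowest in window 71, and the curves share their WT libraries.

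Windows 3, 95 and 96 were picked after their values were seen. Window 3 held 83 tested loci (1.41%) with medians of -0.0032 in sg5 and -0.046 in sg6 (log2). In each clone 4 of its loci were called lower, beside 2.06% (sg5) and 1.72% (sg6) of all features. B3_dup3559, B3_dup3572 and B3A_dup2416, which are 3 of the 7 loci lower in both clones, were among them. The other calls there were B3A_dup2234 in sg5, with 29, 14 and 21 counts in WT and 1, 3 and 1 in sg5 (adjusted p = 0.0148), and B2_Mm2_dup1890 in sg6, with 31, 28 and 40 counts in WT and 4, 12 and 10 in sg6 (adjusted p = 0.0450). In windows 95 and 96 the median was 0.30 in sg5 and 0.30 in sg6 over 162 loci, but 0.15 in sg5 without sg5 replicate 3 and 0.17 with at least 10 counts in every library, and B2_Mm1a had a median of -0.27 in sg6 over 7 loci. Windows 95 and 96 held 2 higher and 1 lower call in sg5, beside 1.82 and 2.06% of all features. In sg6 they held 3 higher calls, beside 1.18% of all features.

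None of the 31 listed genes for RNA polymerase III subunits and its factors passed the test in either clone. Over all features, 1.82 and 2.06% were called higher and lower in sg5, and 1.18 and 1.72% in sg6. The log2 fold changes of the listed genes ran from -0.45 to 0.58 with a median of 0.05 in sg5, and from -0.55 to 0.54 with a median of 0.12 in sg6. Polr3a, the largest subunit, was at 15.4 ± 1.31 CPM (SD, n = 3) in WT, 18.9 ± 2.32 in sg5 and 19.0 ± 1.72 in sg6, and Brf1, a subunit of the initiation factor TFIIIB, at 15.6 ± 1.44, 20.1 ± 1.02 and 20.6 ± 3.56 CPM. Maf1, a repressor of RNA polymerase III, was at 85.9 ± 1.60, 71.4 ± 0.826 and 86.2 ± 6.64 CPM. Ssb, which encodes the La protein that binds new polymerase III transcripts, was at 153 ± 20.3, 176 ± 8.02 and 177 ± 21.7 CPM. DESeq2 also called none of these genes, and 2 in sg5 and 1 in sg6 passed with the replicate number as a block.

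A list of 15 genes was drawn up for proteins that may act on B2 elements or B2 RNA, which was not examined here for each of them. Atrx, the gene targeted in both clones, was the one listed gene lower in both, beside 1.16% of all features. Cbx1, which encodes the HP1 protein HP1β, was the other call in sg5, at 132, 126 and 106 CPM in WT and 71.02, 73.8 and 79.5 CPM in sg5 (log2 fold change -0.70 ± 0.14 SE, adjusted p = 0.00963), and at 87.3, 86.3 and 82.6 CPM in sg6 (-0.51 ± 0.14, adjusted p = 0.0694). It lies outside the naming rule and was picked after its value was seen, and the number of calls in this list fell from 2 to 1 in 6 of the 9 fits without 1 library. Adnp and Chd4, whose products form a complex that binds B2 copies, were at 31.0 ± 6.22 and 146 ± 20.5 CPM (SD, n = 3) in WT, 35.7 ± 9.46 and 163 ± 47.0 in sg5 and 27.3 ± 2.46 and 153 ± 6.83 in sg6. Setdb1, a histone H3K9 methyltransferase, was at 39.9 ± 2.32, 38.7 ± 4.66 and 37.4 ± 1.44 CPM.

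Of 12 heat shock genes, 2 were called higher in sg5 and 1 in sg6, beside 1.82 and 1.18% of all features, and 0 were called lower. Hspa1a, which encodes an inducible HSP70 chaperone, was the single gene of the list called higher in both clones, beside 0.727% of all features. It was at 0.547, 0.390 and 0.187 CPM in WT, 2.22, 2.84 and 3.12 CPM in sg5 and 4.97, 4.12 and 3.37 CPM in sg6. The knockout libraries were all above WT (log2 fold change 2.90 ± 0.37 SE, adjusted p = 0.000439 in sg5, and 3.51 ± 0.37, adjusted p = 0.000107 in sg6), but Hspa1a shares near-identical sequence with Hspa1b, so the split of reads between them is uncertain. Hspa1b was at 20.8 ± 2.40 CPM (SD, n = 3) in WT, 32.4 ± 6.86 in sg5 and 33.7 ± 7.24 in sg6 (adjusted p = 0.101 and 0.0919). Hspb1, a small heat shock protein, was the other call in sg5, where it stood at 1.11, 1.07 and 1.60 CPM against 0.0708 CPM or less in WT (adjusted p = 0.00184). Hsf1, the factor that drives these genes, was at 28.9 ± 4.80, 24.2 ± 2.59 and 28.4 ± 0.808 CPM and passed no test.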

How the data were processed

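The authors sequenced rRNA-depleted RNA of 9 libraries, aligned reads with STAR to mm10 and counted genes and TE loci with TElocal, which shares out multi-mapped reads. The deposited values are raw counts. The strand setting is not given in the sources used here. The members, gene lists and tests were chosen with earlier results of these data known. Rows with the family B2 were taken as members. Features that passed edgeR's filterByExpr (minimum count 10, minimum total 15) were fitted with edgeR 4.0.16 (R 4.3.3), TMM factors and glmQLFTest over all 9 libraries without a block, and a feature was called at an adjusted p below 0.05. Sums over subfamilies and families were fitted together with the genes. Shares were compared by exact permutation tests (scipy 1.17.1). The fits were also run on simulated counts, with the same dispersion for every feature and large planted changes. That check does not cover the spread between the real libraries. DESeq2 1.42.0, other scalings and filters, a replicate block and leaving out each library were alternatives. Loci were named by rule: those called in the same direction in both clones without overlap of libraries (up to 8 per direction), the 5 highest by mean CPM, and those called between the clones (up to 4 per direction). Listed genes called in both clones were named by rule. Other listed genes, such as Polr3a, Brf1, Maf1, Ssb, Adnp, Chd4, Setdb1, Hspa1b, Hspb1 and Hsf1, were named outside that rule. Gene symbols came from RefSeq by Entrez ID (24045 of 24100 matched). CPM intervals and floors cover counting error only, and the polyA count table, which holds genes only, was not used here. No replicate pair of libraries agreed within sampling noise. Locus coordinates and sequences were not used here.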

Additional observations from a re-analysis of the deposited data

Results flagged for a closer look

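B2_Mm1a_dup9906 and B2_Mm2_dup14386 differed between the knockout clones in the direct comparison of sg5 with sg6, at adjusted p = 0.000177 and 0.0379 (edgeR quasi-likelihood test). B2_Mm1a_dup9906 had 65 to 152 counts in sg5 and 0 in all sg6 libraries, and B2_Mm2_dup14386 had 15 to 44 counts in sg5 and 3 to 6 in sg6.

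Among the listed genes, the same comparison separated the clones at Hspb1 (adjusted p = 0.0236) and at Thy1, a mesenchymal surface marker (adjusted p = 3.77e-07). Hspb1 was at 1.07 to 1.60 CPM in sg5 and at 0.166 CPM or less in sg6. Thy1 was at 23.7 to 32.8 CPM in sg6, at 0.214 CPM or less in sg5 and at 0.212 to 0.428 CPM in WT. Both genes were picked after their values were seen.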

How the results depend on the processing

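The B2 sums did not pass the test under any setting tried, and for the shares 3 against 3 libraries could not pass (smallest exact p 0.1). Leaving out 1 library in turn gave log2 values of -0.35 to -0.12 (sg5) and -0.28 to -0.058 (sg6) for the family sum. Between sg5 and sg6 the sums changed sign on leaving out sg5 or sg6 replicate 2, over ranges of -0.28 to 0.13 for B2_Mm1a, -0.22 to 0.011 for B2_Mm1t, -0.11 to 0.021 for B2_Mm2 (0.012 without sg5 replicate 2), -0.091 to 0.019 for B3 and -0.098 to 0.019 for B3A. B3_dup129966, not called, ran from -0.39 to 0.12 in sg5 and from -0.46 to 0.046 in sg6, with the positive values without WT replicate 1. Counting loci with at least 5 counts changed the difference in loci detected in sg5 to -3052, and the 100 highest loci in place of 10 gave share differences of 1.26 (sg5) and 0.701 (sg6) points.

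Counts of called loci depended on the setting, and the cause was not tested except where fewer features entered by construction. In the order higher in sg5, lower in sg5, higher in sg6, lower in sg6, higher in both clones and lower in both clones, they were 28, 37, 16, 13, 9 and 7 as reported. They were 46, 45, 24, 27, 13 and 13 with DESeq2, 53, 61, 42, 40, 18 and 13 without a filter, 14, 13, 2, 5, 1 and 1 with at least 10 counts in every library, 10, 13, 9, 10, 3 and 3 adjusted over TE loci alone, 23, 37, 17, 22, 5 and 11 with only the groups compared, 43, 31, 20, 11, 11 and 6 with TE scaling, and 26, 28, 12, 13, 6 and 4 in thinned libraries. Between the clones, higher and lower in sg5, they were 2 and 0 as reported, 6 and 5 with DESeq2, 10 and 8 without a filter, 0 and 1 with at least 10 counts, 1 and 0 over TE loci alone and 1 and 0 with only the groups compared. Without 1 library the counts ran from 13 to 45 and 10 to 42 in sg5, 6 to 23 and 2 to 26 in sg6, 4 to 9 and 0 to 9 in both clones, and 1 to 3 and 0 to 1 between the clones. Of the 9 higher and 7 lower loci in both clones, DESeq2 shared 9 and 7. Without WT replicates 1, 2 and 3, 4, 4 and 4 loci were higher in both clones, of which 1, 2 and 2 were among the 9, and 1, 2 and 0 were lower.

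Replicate numbers are shared by the groups but were not taken to pair the libraries, for which every pair had to exceed 0.1. Deviations of libraries with the same number correlated at r = 0.0554 to 0.268 (4 of 9 pairs above 0.1), those with different numbers at -0.231 to 0.145, and 13 of 18 best matches had the same number, a hint from the data. A replicate block in the fit gave counts of 59, 61, 29, 20, 15 and 10, with 3 and 1 between the clones. The block also gave 2 and 1 called polymerase III genes (sg5 and sg6), 2 genes of the B2 protein list in sg6, and 5 and 2 heat shock genes. With a fold change beyond 1 on the log2 scale, 1 gene of the B2 protein list was left in sg5. Without 1 library these lists ran from 0 to 1 (polymerase III, sg5), 1 to 2 (B2 protein list, sg5), and 2 to 4 and 1 to 2 (heat shock, sg5 and sg6). The median of windows 62 to 72 ran from -0.52 with gene scaling to -0.30 with at least 10 counts in sg5 and from -0.28 to -0.14 in sg6. Depth limits single loci, since a tested locus had a median of 11.3 counts.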
